A study of Mus musculus with 15 samples.

Results

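The D and E cyclins, the CDK inhibitors of the CIP/KIP and INK4 families and the pocket protein Rb1 are described here as 10 genes, chosen by name and found by Ensembl identifier among the 38924 genes counted: Ccnd1, Ccnd2, Ccnd3, Ccne1, Ccne2, Cdkn1a, Cdkn1b, Cdkn2c, Cdkn2d and Rb1. All 10 passed the filter on low counts. Their mRNA was measured in 5 subtypes of murine mononuclear phagocytes (MPs), dendritic cells (DCs) of spleen and lymph node (LN) and monocytes, with 3 libraries each. The spleen gave CD8+ DCs (the DC1 lineage), CD4+ DCs (the DC2 lineage) and Ly6C+ monocytes, and the lung LN gave CD103+ cells of the DC1 and CD11b+ cells of the DC2 lineage. All mice were naïve C57BL/6 females, aged 6 to 8 weeks by the labels, with no allele or treatment named for any group. Each library was a pool of cells from 5 mice, so that p-values measure the spread between pools. Separate cohorts supplied the organs, and the sort of LN cells took those with high MHC class II, so that organ, cohort and gate cannot be told apart wherever LN is compared with spleen. DCs were enriched with beads to CD11c and monocytes with beads to CD11b before the sort, so that cell type and enrichment cannot be told apart between them.

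A cell commits to division in G1. D cyclins bind CDK4 and CDK6, E cyclins bind CDK2, and these kinases phosphorylate the retinoblastoma protein pRb, which then lets go of the E2F factors that switch on the genes of DNA replication. p21 (Cdkn1a) and p27 (Cdkn1b) bind cyclin and CDK complexes, mostly to block CDK2, while the INK4 proteins p18 (Cdkn2c) and p19 (Cdkn2d) bind CDK4 and CDK6. DCs of the spleen include cells that still divide, whereas DCs that migrate from tissue to the draining LN are mature cells regarded as having left the cycle.

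Libraries held 4531243 to 10233914 counts on genes, and levels are given as CPM, the counts on a gene scaled to the depth of its library, in each of the 3 libraries, or per length as TPM, which also corrects for exon length. Markers of migratory DCs and of monocytes followed the labels. The summed level of Ccr7, Fscn1 and Ccl22, which mark migratory DCs, was 5577 to 12709 CPM in LN DCs and 136 to 349 CPM in splenic DCs. That of 4 monocyte markers was 5258 to 5775 CPM in monocytes and at most 676 CPM in any DC library. The 4 general DC markers (Flt3, Zbtb46, Itgax and H2-Ab1) summed to 13293 to 23422 CPM in splenic DCs, 2872 to 10437 CPM in LN DCs and 1421 to 1814 CPM in monocytes. Mean H2-Ab1 was 19138 and 15905 CPM in splenic CD8+ and CD4+ DCs, and 1765.5 and 7374 CPM in LN CD103+ and CD11b+ DCs. Itgax was also lower in LN DCs. Flt3 was at means of 887 to 1362.5 CPM and Zbtb46 of 339 to 442 CPM in the DC subtypes. In spleen, 6 DC1 markers summed to 3159 to 5166 CPM in CD8+ and 636 to 974 CPM in CD4+ DCs, and in LN to 279 to 465 CPM in CD103+ and 110 to 141 CPM in CD11b+ DCs. The sum was thus higher in splenic CD4+ than in LN CD103+ DCs. This came from Wdfy4, with means of 757.7 and 118.9 CPM, and each other marker of the list was higher in LN CD103+ DCs. The 4 DC2 markers summed to 784.5 to 2446 CPM in the DC2 subtypes and to 53 to 167 CPM in the DC1 subtypes, and were no lower in monocytes, at 2277 to 2595 CPM. Markers of other cells differed between the organs. The summed level of 7 T cell markers was 110 to 137 CPM in the LN DC1, 74.9 to 109 CPM in the LN DC2 and 3.51 to 20 CPM in splenic DCs, with all 7 above 1 CPM on average in both LN subtypes, and that of 7 B cell markers was 257 CPM in replicate 1 of the LN CD103+ DCs, 16.5 and 28.8 CPM in the other 2, 49.6 to 93.9 CPM in LN CD11b+ DCs and 30.8 to 89.3 CPM in splenic DCs. Erythroid markers summed to 22.4 to 178 CPM in splenic DCs and to 1.49 to 41.1 CPM in LN DCs, plasmacytoid DC markers were highest in splenic CD8+ DCs at 68.3 to 96.5 CPM, and 5 neutrophil granule markers reached 141 to 237 CPM in monocytes, with at most 1.49 CPM in any DC library. The part of such cells in the results below was not tested.

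Promoter sequence for 6 of the 10 genes was taken from RefSeq on GRCm38.p6 as the 250 bases before each start. Gene positions below are those of the counted exons on the same build (mm10). Ccnd1, Ccnd2, Ccne2 and Rb1 were not matched in the promoter table used. Cdkn1a and Ccne1 are printed because they moved in opposite directions between the organs. Both RefSeq starts of Cdkn1a (ENSMUSG00000023067, chromosome 17, 29090979 to 29100722, plus strand) are shown. In the upstream window, chr17:29090729-29090978, plus strand, capitals mark a match to the p53 response element, taken as 2 adjoining half-sites of 10 bases with at most 1 base off the consensus and both cores intact, a rule set after this sequence had been seen. In the downstream window, chr17:29093519-29093768, plus strand, and in that of Ccne1 (ENSMUSG00000002068, chromosome 7, 38097984 to 38107534, minus strand), chr7:38107491-38107740, minus strand, capitals mark GC boxes (GGGCGG on either strand).
Cdkn1a upstream: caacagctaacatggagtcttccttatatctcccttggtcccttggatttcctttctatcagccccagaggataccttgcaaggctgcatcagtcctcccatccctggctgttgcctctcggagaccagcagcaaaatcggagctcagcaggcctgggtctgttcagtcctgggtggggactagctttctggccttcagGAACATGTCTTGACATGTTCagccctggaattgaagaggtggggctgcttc
Cdkn1a downstream: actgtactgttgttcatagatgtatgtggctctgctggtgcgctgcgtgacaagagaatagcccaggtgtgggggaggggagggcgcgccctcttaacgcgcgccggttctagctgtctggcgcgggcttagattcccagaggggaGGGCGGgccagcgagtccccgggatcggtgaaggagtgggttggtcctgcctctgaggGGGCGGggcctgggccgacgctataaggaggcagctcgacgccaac
Ccne1: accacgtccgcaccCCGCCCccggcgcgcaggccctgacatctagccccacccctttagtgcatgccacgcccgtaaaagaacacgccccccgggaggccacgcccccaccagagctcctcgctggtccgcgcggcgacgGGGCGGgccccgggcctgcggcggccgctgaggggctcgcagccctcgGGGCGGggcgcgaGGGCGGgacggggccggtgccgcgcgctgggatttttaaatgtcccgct
The p53 element began 51 bases before the upstream start and was present in 0.0578% of the 32851 promoter windows of the table. GC boxes, held by 32.7% of all windows, numbered 4 before Ccne1 and 2 before the downstream start of Cdkn1a. The windows of Cdkn1b and Cdkn2d and 1 of the 2 of Ccnd3 held a CCAAT box (CCAAT on either strand), as did 33.8% of all windows. The E2F-type sites TTTCCCGC, TTTGGCGC and TTTCGCGC (either strand, in 1.53% of all windows) and a TATA box (TATAAA on either strand, 12.4%) were in none of the windows of the 6 genes. A match is a description of the letters and says nothing of binding in these cells.

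The organ of origin was the first comparison: LN DCs against splenic DCs, as the mean of both lineages. Cdkn1a and Ccnd2 were higher in LN DCs, and Ccne1, Ccne2, Ccnd3 and Ccnd1 were lower, while Cdkn1b, Cdkn2c, Cdkn2d and Rb1 did not pass the test. The test was edgeR's quasi-likelihood test over 14456 genes with Benjamini-Hochberg adjustment at 0.05, and adjusted p-values below come from it. It called 6 of the 10 genes, beside 49.9% of all genes tested, with 2 of 10 higher beside 26.5% of all genes and 4 of 10 lower beside 23.4%. Within DC1 (LN CD103+ minus splenic CD8+), 5 of 10 were called beside 45.6% of all genes, 3 higher beside 23.8% and 2 lower beside 21.8%. Within DC2 (LN CD11b+ minus splenic CD4+), 4 of 10 were called beside 33.1%, 1 higher beside 19.3% and 3 lower beside 13.8%. These tests were unpaired. Pairing by replicate number added Ccnd2 and Ccnd3 within DC2, where it called 5343 of the 14456 genes. In the unpaired tests, calls among the 10 genes were thus about as frequent as among all genes.

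**Figure D1:**
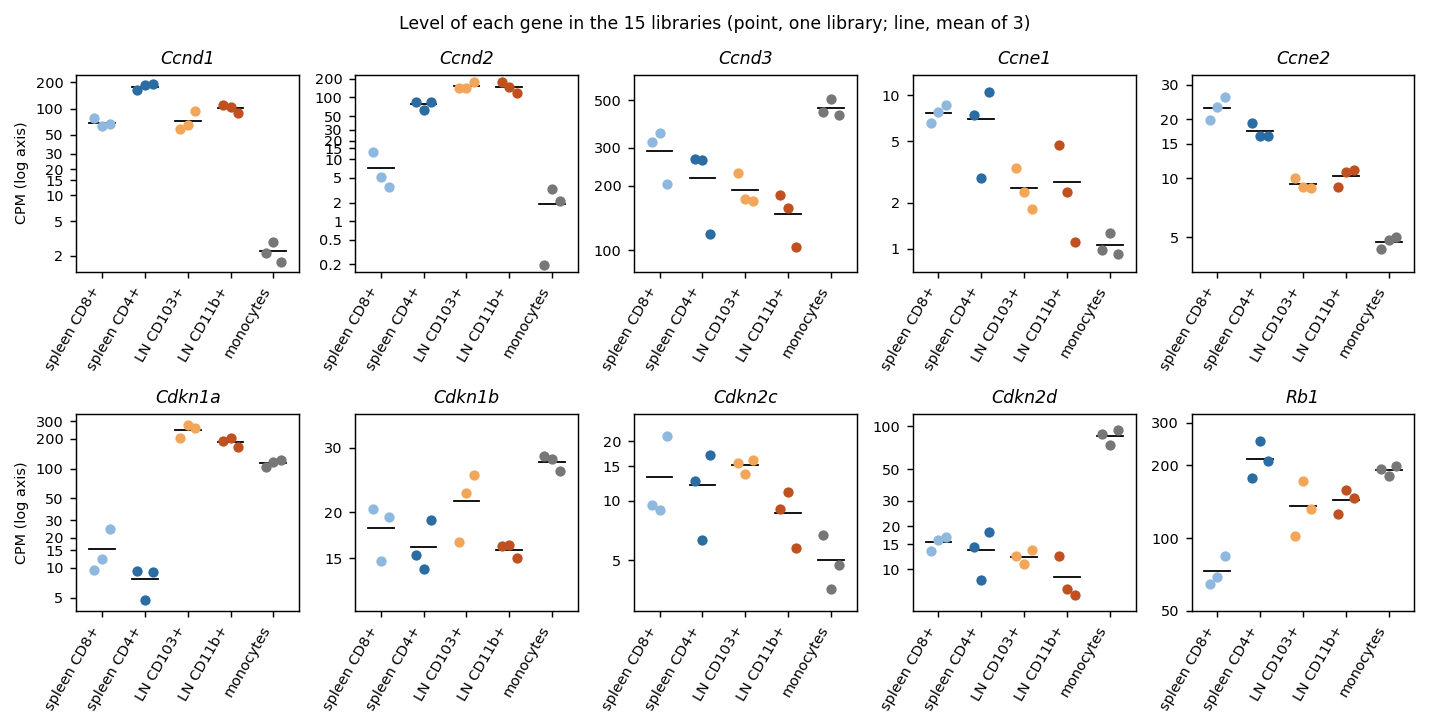
Level of each of the 10 genes in CPM, on log axes that differ between panels, in 3 libraries of each of the 5 subtypes (points), with the mean as a line. Cdkn1a is at 164 CPM or more in the 6 LN DC libraries and at 24.8 CPM or less in the 6 splenic DC libraries, and Ccnd1 and Ccnd2 are at 3.30 CPM or less in the monocytes.

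Among the D cyclins, Ccnd2 (ENSMUSG00000000184, chromosome 6, 127125779 to 127151048, minus strand) showed the widest range as a fold, from 0.197 to 180.9 CPM. It was at 13, 5.26 and 3.55 CPM in CD8+ and at 85.6, 63.1 and 86.1 CPM in CD4+ DCs of the spleen, at 142.9, 143.7 and 175.5 CPM in CD103+ and at 180.9, 147.8 and 118.9 CPM in CD11b+ DCs of the LN, and at 0.197, 3.30 and 2.10 CPM in monocytes. All 6 LN libraries were above all 6 splenic DC libraries, and the splenic CD8+ libraries were the lowest of the DCs. The log2 fold change from spleen to LN was 2.67 ± 0.28 (SE) for the mean of the lineages (adjusted p = 2.50e-07), 4.40 ± 0.44 in DC1 (adjusted p = 1.56e-07) and 0.93 ± 0.37 in DC2 (adjusted p = 0.0614). In DC2 the call depended on the fit: pairing libraries by replicate number gave 0.92 (adjusted p = 0.0431), and the adjusted p lay between 0.00103 and 0.191 over 23 alternatives, falling to 0.0262 without splenic CD8+ replicate 1, 0.0375 without splenic CD8+ replicate 3 and 0.0319 without monocyte replicate 1. The organ effects of the lineages differed by 3.47 ± 0.55 on the log2 scale (adjusted p = 3.72e-04). Without splenic CD8+ replicate 1, the highest of its group, the value in DC1 was 5.13 and the difference 4.2. Summed T cell markers were also higher in all LN than in all splenic DC libraries, as given above, and their part in the result was not tested. In bulk samples, fewer cells with a transcript and less of it per cell cannot be told apart, which holds for every level given here.

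Ccnd1 (ENSMUSG00000070348, chromosome 7, 144929931 to 144939869, minus strand), the D cyclin most tied to growth factor signals, was highest in splenic CD4+ DCs. It stood at 77.8, 62.7 and 65.5 CPM in CD8+ and at 162.5, 184.8 and 189.6 CPM in CD4+ DCs of the spleen, at 57.9, 64.7 and 94.4 CPM in CD103+ and at 109.5, 102.8 and 89.7 CPM in CD11b+ DCs of the LN, and at 2.16, 2.92 and 1.71 CPM in monocytes. The splenic CD4+ libraries stood above all others and the monocytes far below. LN CD103+ DCs overlapped both splenic CD8+ and LN CD11b+ DCs. LN CD11b+ DCs lay above splenic CD8+ DCs (0.55 ± 0.20, adjusted p = 0.0384). Ccnd1 was lower in LN than in splenic DC2, with a log2 fold change of -0.83 ± 0.20 (adjusted p = 0.00396), and by 0.07 ± 0.20 higher in LN than in splenic DC1 (adjusted p = 0.797). The mean over both lineages was -0.38 ± 0.14 (adjusted p = 0.0361), a call lost without the filter on low counts (adjusted p = 0.0594) and when any of 6 libraries was left out (splenic CD8+ 1, splenic CD4+ 3, LN CD103+ 1 or 2, LN CD11b+ 2 or 3, adjusted p = 0.0557 to 0.1), with 0.00773 to 0.1 over all 23 alternatives. The organ effects differed between lineages by 0.90 ± 0.29 (adjusted p = 0.0506, and 0.0133 to 0.156 over the alternatives, below 0.05 in 8 of 23, among them those without splenic CD8+ 1, splenic CD4+ 1 or LN CD103+ 1, at 0.0492, 0.0490 and 0.0300).

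Ccnd3 (ENSMUSG00000034165, chromosome 17, 47505051 to 47599691, plus strand), a D cyclin prominent in blood cells, had the smallest range of the 3 as a fold, though not in CPM. It was at 319.6, 351.9 and 202.7 CPM in CD8+ and at 267.6, 264.6 and 119.0 CPM in CD4+ DCs of the spleen, at 228.9, 172.4 and 169.7 CPM in CD103+ and at 180.8, 157.2 and 103.0 CPM in CD11b+ DCs of the LN, and at 442.1, 507.6 and 428.0 CPM in monocytes. The monocyte libraries were above every DC library. The DC subtypes overlapped, except that LN CD11b+ DCs lay below splenic CD8+ DCs (-0.98 ± 0.29, adjusted p = 0.0102). The mean log2 fold change from spleen to LN was -0.59 ± 0.20 (adjusted p = 0.0205), with -0.61 ± 0.28 in DC1 (adjusted p = 0.0863) and -0.56 ± 0.28 in DC2 (adjusted p = 0.145). The mean missed the threshold without splenic CD4+ replicate 1 or 2, LN CD103+ replicate 3 or LN CD11b+ replicate 3 (adjusted p = 0.0503 to 0.0588, and 0.00103 to 0.0588 over all alternatives). Within DC2 the fit paired by replicate number gave -0.53 (adjusted p = 0.0465), and leaving out splenic CD4+ replicate 3, the lowest of its group, gave -0.85 (adjusted p = 0.0145, with 0.0145 to 0.403 over the alternatives). Within DC1 the adjusted p was 0.0323 without splenic CD8+ replicate 3 and 0.0343 without splenic CD4+ replicate 3 (0.0234 to 0.229 over the alternatives).

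Both E cyclins were lower in LN DCs. Ccne2 (ENSMUSG00000028212, chromosome 4, 11191351 to 11204779, plus strand) was at 19.7, 23.1 and 26.0 CPM in CD8+ and at 19.1, 16.5 and 16.5 CPM in CD4+ DCs of the spleen, at 10, 9.01 and 8.95 CPM in CD103+ and at 9.03, 10.7 and 11 CPM in CD11b+ DCs of the LN, and at 4.33, 4.86 and 5 CPM in monocytes. These ranges fell into 3 tiers without overlap, splenic DCs over LN DCs over monocytes. The log2 fold change from spleen to LN was -1.03 ± 0.17 for the mean (adjusted p = 3.63e-05), -1.29 ± 0.23 in DC1 (adjusted p = 1.64e-04) and -0.76 ± 0.23 in DC2 (adjusted p = 0.0167). The DC2 value missed the threshold without splenic CD4+ replicate 1 (adjusted p = 0.0504) or LN CD11b+ replicate 1 (adjusted p = 0.0713), without the filter and in a fit of these subtypes alone (0.00536 to 0.0897 over the alternatives). Of the exons of Ccne2, 17.4% overlap Ints8 on the other strand, and counting was blind to strand. Reads of Ints8, if spread evenly over its exons, would make up 18 to 42.5% of the Ccne2 counts in splenic DCs, 52.4 to 73.2% in LN DCs and 70.9 to 95.8% in monocytes. With those reads taken off, the mean log2 fold change was -1.91, with -2.32 in DC1 and -1.50 in DC2 (adjusted p = 1.21e-05, 9.36e-05 and 0.00596), and the tiers kept their order.

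Ccne1, whose protein is the other partner of CDK2 at the entry into S phase, was scarcer. It was at 6.57, 7.83 and 8.70 CPM in CD8+ and at 7.48, 2.90 and 10.5 CPM in CD4+ DCs of the spleen, at 3.35, 2.34 and 1.82 CPM in CD103+ and at 4.73, 2.35 and 1.10 CPM in CD11b+ DCs of the LN, and at 0.983, 1.26 and 0.921 CPM in monocytes. Splenic CD4+ replicate 2 lay within the range of the LN libraries, and the other 5 splenic DC libraries lay above it. The log2 fold change was -1.45 ± 0.36 for the mean (adjusted p = 0.00221), -1.61 ± 0.51 in DC1 (adjusted p = 0.0138) and -1.29 ± 0.50 in DC2 (adjusted p = 0.0569). Its counts were low, 5 to 76 reads a library. The DC1 call was lost without LN CD103+ replicate 3 (adjusted p = 0.0574, and 0.00423 to 0.0574 over the alternatives), and the DC2 value passed without splenic CD4+ replicate 2 (-1.65, adjusted p = 0.0145) or LN CD11b+ replicate 1 (-1.96, adjusted p = 0.0163, with 0.0145 to 0.231 over the alternatives).

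Cdkn1a, which encodes p21, a target of p53 and a blocker of CDK2, had the largest organ effect of the 10 genes in the mean of the lineages. It was at 9.56, 12.4 and 24.8 CPM in CD8+ and at 9.28, 4.77 and 9.16 CPM in CD4+ DCs of the spleen, at 202.8, 273.3 and 254.5 CPM in CD103+ and at 188.8, 201.8 and 164.4 CPM in CD11b+ DCs of the LN, and at 103.8, 115.6 and 121.8 CPM in monocytes. The LN DCs, the monocytes and the splenic DCs occupied 3 separate ranges. From spleen to LN the log2 fold change was 4.26 ± 0.22 for the mean (adjusted p = 2.40e-11), 3.96 ± 0.31 in DC1 (adjusted p = 8.19e-09) and 4.57 ± 0.33 in DC2 (adjusted p = 8.73e-09). The effect in DC1 minus that in DC2 was -0.61 ± 0.41 (95% interval -1.47 to 0.25, adjusted p = 0.386). No exon of another gene overlaps Cdkn1a, and its mean organ effect lay between 4.13 and 4.52 over the 23 alternatives.

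The other 3 inhibitors did not pass the test between the organs. Cdkn1b (p27; ENSMUSG00000003031, chromosome 6, 134920401 to 134925513, plus strand) was at 14 to 20.4 CPM in splenic DCs and 15 to 25.3 CPM in LN DCs, with a mean log2 fold change of 0.11 ± 0.16 (95% interval -0.23 to 0.45, adjusted p = 0.598). Cdkn2c (p18; ENSMUSG00000028551, chromosome 4, 109660876 to 109667189, minus strand) was at 6.31 to 21.2 CPM in splenic and 5.75 to 16.1 CPM in LN DCs, with -0.14 ± 0.28 (95% interval -0.72 to 0.44, adjusted p = 0.711). Cdkn2d (p19; ENSMUSG00000096472, chromosome 9, 21288463 to 21291209, minus strand) was at 8.35 to 18.1 CPM in splenic and 6.63 to 13.6 CPM in LN DCs, with -0.48 ± 0.20 (95% interval -0.90 to -0.06, adjusted p = 0.0519). The intervals of Cdkn1b and Cdkn2c leave room for changes of either sign. That of Cdkn2d did not reach 0, and its adjusted p lay between 0.00877 and 0.147 over the alternatives, under 0.05 in 5 of them, which were the paired fit (-0.47, adjusted p = 0.0370), limma on TPM and those without splenic CD8+ 1, splenic CD4+ 2 or LN CD11b+ 1 (adjusted p = 0.0490, 0.00877 and 0.0121). Within DC2, Cdkn2d had -0.61 ± 0.29 (adjusted p = 0.110), and without splenic CD4+ 2 or LN CD11b+ 1 it had -0.86 and -0.96 (adjusted p = 0.0208 and 0.0277, with 0.0208 to 0.385 over the alternatives).

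Rb1 (ENSMUSG00000022105, chromosome 14, 73183673 to 73325822, minus strand) moved in opposite directions in the 2 lineages. It was at 64.9, 69.1 and 84.6 CPM in CD8+ and at 178.0, 251.5 and 207.9 CPM in CD4+ DCs of the spleen, at 102.3, 173.0 and 132.4 CPM in CD103+ and at 125.5, 158.4 and 146.7 CPM in CD11b+ DCs of the LN, and at 194.1, 181.1 and 199.7 CPM in monocytes. The LN DCs lay between the splenic subtypes without touching either. Rb1 was higher in LN than in splenic DC1, by 0.90 ± 0.21 on the log2 scale (adjusted p = 0.00145), and lower in DC2, with -0.57 ± 0.20 (adjusted p = 0.0392), and the difference of these effects was 1.46 ± 0.29 (adjusted p = 0.00259). The DC2 call was lost without splenic CD4+ replicate 2 or 3, LN CD11b+ replicate 1 or 3 or monocyte replicate 1 or 3 (adjusted p = 0.0517 to 0.145), without the filter (0.0542) and in a fit of these subtypes alone (0.111), with 0.0156 to 0.145 over all alternatives. Of its exons, 14.9% overlap Lpar6 or Rcbtb2 on the other strand. Evenly spread reads of Lpar6 would be 23.1 to 29.1% of the Rb1 counts in splenic CD8+ DCs, 12.5 to 13.7% in monocytes and at most 2.7% in the other subtypes. With overlapping reads taken off, the effect in DC1 was 1.36, the difference 1.94, and the mean of the lineages went from 0.17 ± 0.14 (adjusted p = 0.356) to 0.40 (adjusted p = 0.0338, with 0.0338 to 0.758 over the alternatives). The difference between the lineages' organ effects was past the threshold for 2 of the 10 genes, Ccnd2 and Rb1, beside 11.2% of all genes.

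**Figure D2:**
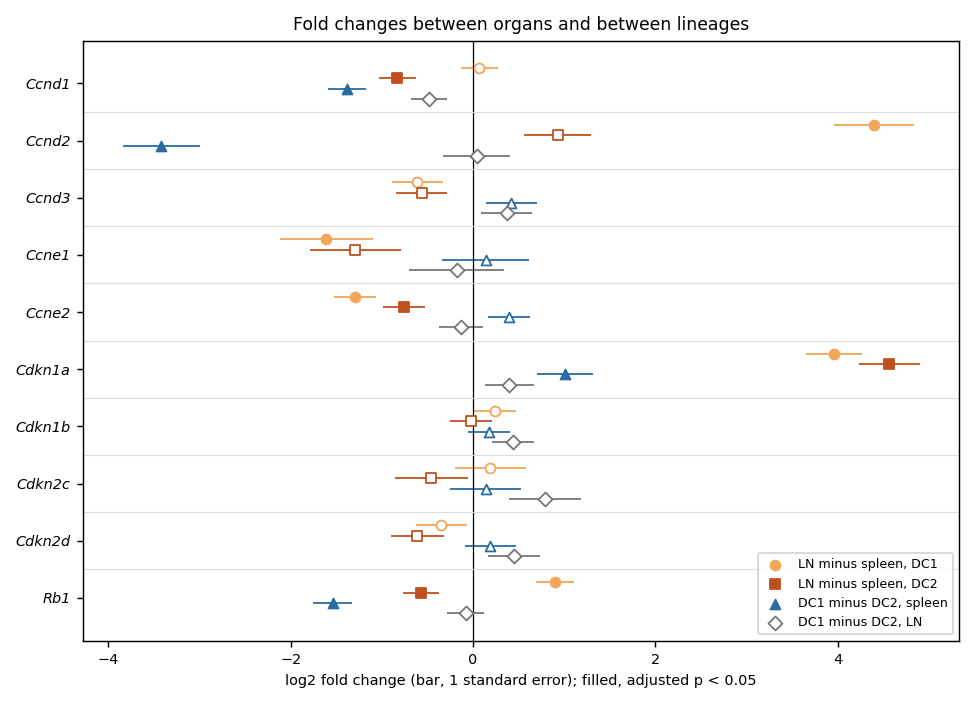
Log2 fold change of each gene (x axis, with 1 SE as the bar) between LN and spleen in DC1 (circles) and DC2 (squares) and between DC1 and DC2 in spleen (triangles) and LN (diamonds); filled symbols passed an adjusted p of 0.05. Cdkn1a lies at 3.96 and 4.57 in the organ comparisons, Ccnd2 at 4.40 in DC1 and 0.93 in DC2, and every diamond is open.

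The lineages were compared next, within each organ. In spleen, CD8+ DCs had less Ccnd2, Ccnd1 and Rb1 than CD4+ DCs and more Cdkn1a. The log2 differences were -3.42 ± 0.42 for Ccnd2 (adjusted p = 7.67e-06), -1.38 ± 0.21 for Ccnd1 (adjusted p = 6.41e-05), -1.54 ± 0.21 for Rb1 (adjusted p = 2.04e-05) and 1.01 ± 0.31 for Cdkn1a (adjusted p = 0.0204). For Ccnd2, Ccnd1, Rb1 and Cdkn1a the CD8+ and CD4+ libraries did not overlap. Those of Ccne2 did not either, though it was not called (0.40 ± 0.23, adjusted p = 0.205). The share of all genes with separate ranges was not counted, so separate ranges, here and for other comparisons, are descriptions only. Without splenic CD8+ replicate 1 the difference of Ccnd2 was -4.15. These 4 of 10 calls stand beside 27.4% of all genes, the single higher gene beside 13.1% and the 3 lower genes beside 14.4%. The Cdkn1a call was lost in 4 of the 23 alternatives (adjusted p = 0.00142 to 0.215 over all of them) and rested in part on single libraries. Without splenic CD8+ replicate 3, at 24.8 CPM, the difference was 0.50 (adjusted p = 0.215). Without splenic CD4+ replicate 2, at 4.77 CPM, it was 0.76 (adjusted p = 0.102).

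In the LN, none of the 10 genes passed edgeR's test between CD103+ and CD11b+ DCs, beside 12.9% of all genes (5.22% higher and 7.73% lower). At an unadjusted p of 0.05 edgeR had 1, Ccnd1, at -0.48 ± 0.20 (adjusted p = 0.144). The share of all genes at that cut was not counted. DESeq2 called 0 of the 10, beside 2258 of 14456 genes. Without LN CD103+ replicate 3 the difference of Ccnd1 was -0.71 (adjusted p = 0.0421, with 0.0421 to 0.405 over the alternatives). The 95% intervals of the log2 difference ran from -0.72 to 0.81 for Ccnd2, from -0.17 to 0.96 for Cdkn1a, from -0.50 to 0.35 for Rb1 and from -0.63 to 0.37 for Ccne2.

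Monocytes differed from the mean of the splenic DCs in all 10 genes, beside 48.2% of all genes. Higher were 5 (beside 24.3%) and lower were 5 (beside 24%). The higher genes were 3 of the 4 inhibitors together with Ccnd3 and Rb1. Against single subtypes, Rb1 was called against splenic CD8+ DCs (1.39 ± 0.21, adjusted p = 2.20e-05) and had -0.15 ± 0.20 against splenic CD4+ DCs (adjusted p = 0.576), and Ccnd3 was called against splenic CD4+ DCs (1.08 ± 0.29, adjusted p = 0.00459) and had 0.66 ± 0.28 against splenic CD8+ DCs (adjusted p = 0.0712). Cdkn2d was at 88.5, 73.4 and 93.7 CPM in monocytes and at 18.1 CPM or less in every DC library, a log2 difference of 2.55 ± 0.22 (adjusted p = 2.12e-08). Cdkn1a was higher by 3.36 ± 0.24 (adjusted p = 1.46e-09), Ccnd3 by 0.87 ± 0.24 (adjusted p = 0.00558), Cdkn1b by 0.68 ± 0.19 (adjusted p = 0.00659) and Rb1 by 0.62 ± 0.17 (adjusted p = 0.00587). Cdkn1b was at 28.5, 27.9 and 25.9 CPM in monocytes, above the highest DC library. The lower genes were both other D cyclins, both E cyclins and Cdkn2c.

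Ccnd1 fell by 5.58 ± 0.26 and Ccnd2 by 3.51 ± 0.45 in that comparison (adjusted p = 4.76e-12 and 3.11e-06). Monocytes had 11, 30 and 13 reads on Ccnd1 and 1, 34 and 16 on Ccnd2. The gene LTO1 overlaps 21.3% of the Ccnd1 exons on the other strand, and its evenly spread reads would come to 156 to 273% of the Ccnd1 counts in monocytes and to at most 12.5% in DCs, so that detection of Ccnd1 in monocytes is uncertain. Without monocyte replicate 2, Ccnd2 fell by 4.19 (adjusted p = 1.27e-05). Ccne1 fell by 2.76 ± 0.52, Ccne2 by 2.07 ± 0.23 and Cdkn2c by 1.36 ± 0.37 (adjusted p = 2.09e-04, 4.29e-07 and 0.00532). Without the reads of Ints8, Ccne2 fell by 4.27 (adjusted p = 2.58e-07).

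Over all 5 subtypes, the test for any difference called all 10 genes, beside 73.5% of all genes. Without monocyte replicate 2 it called 8 of the 10, beside 9818 of 14328 genes. In order of level, Cdkn1a ran LN CD103+, LN CD11b+, monocytes, splenic CD8+, splenic CD4+, and only the first pair of neighbours missed the threshold (0.40 ± 0.27, adjusted p = 0.393). Ccnd2 ran LN CD103+, LN CD11b+, splenic CD4+, splenic CD8+, monocytes, and its last 2 steps passed, by 3.42 and by 1.80 ± 0.49 (adjusted p = 0.00593). Ccne2 ran splenic CD8+, splenic CD4+, LN CD11b+, LN CD103+, monocytes, and passed at the second and the fourth step (0.76 ± 0.23 and 0.97 ± 0.25, adjusted p = 0.0167 and 0.00263). Ccnd1 passed at its first step, from splenic CD4+ to LN CD11b+, and at its last, from splenic CD8+ to monocytes (4.88 ± 0.26, adjusted p = 6.95e-11). Rb1 passed at its last step alone, from LN CD103+ to splenic CD8+, and Cdkn2d at its first, from monocytes to splenic CD8+ (2.46 ± 0.28, adjusted p = 8.10e-07). For Ccnd3, Ccne1, Cdkn1b and Cdkn2c no pair of neighbours passed in edgeR's test, and the order of neighbours is not resolved. Some wider steps passed. Among them were Ccnd3 and Cdkn1b from monocytes down to LN CD11b+ DCs (adjusted p = 1.29e-04 and 0.00797). Ccne1 passed from splenic CD8+ down to LN CD11b+ DCs (adjusted p = 0.0289), and Cdkn2c from LN CD103+ DCs down to monocytes (adjusted p = 0.00267). The same model called 6 of 10 genes between LN CD103+ and splenic CD4+ DCs beside 47.0% of all genes, and 8 of 10 between LN CD11b+ and splenic CD8+ DCs beside 39.9%. Between monocytes and single subtypes it called 9 of 10 against splenic CD8+ DCs (beside 42.1%), 9 against splenic CD4+ DCs (beside 48.0%), 8 against LN CD103+ DCs (beside 53.2%) and 8 against LN CD11b+ DCs (beside 47.8%).

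Per length, the subtypes differed in which D cyclin made up the pool more than in its size. The sum of Ccnd1, Ccnd2 and Ccnd3 was 97.9 to 147 TPM in splenic CD8+ DCs, 194 to 226 TPM in splenic CD4+ DCs, 136 to 173 TPM in LN CD103+ DCs, 143 to 196 TPM in LN CD11b+ DCs and 127 to 148 TPM in monocytes. Monocytes had almost a single D cyclin, with 97.7 to 98.8% of the sum from Ccnd3. Splenic CD8+ DCs drew 56.6 to 69.9% from Ccnd3 and 1.53 to 3.87% from Ccnd2. Splenic CD4+ DCs drew 48.2 to 63.3% from Ccnd1. Both LN subtypes drew 36.7 to 41.2% from Ccnd2, against 19.3% at most in any splenic DC library. The shares depend on the lengths used, those of all counted exons, at 3835 bases for Ccnd1, 5701 for Ccnd2 and 8775 for Ccnd3. In CPM, Ccnd3 and Ccnd2 had means of 190.3 and 154.0 in LN CD103+ DCs and 147.0 and 149.2 in LN CD11b+ DCs.

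**Figure D3:**
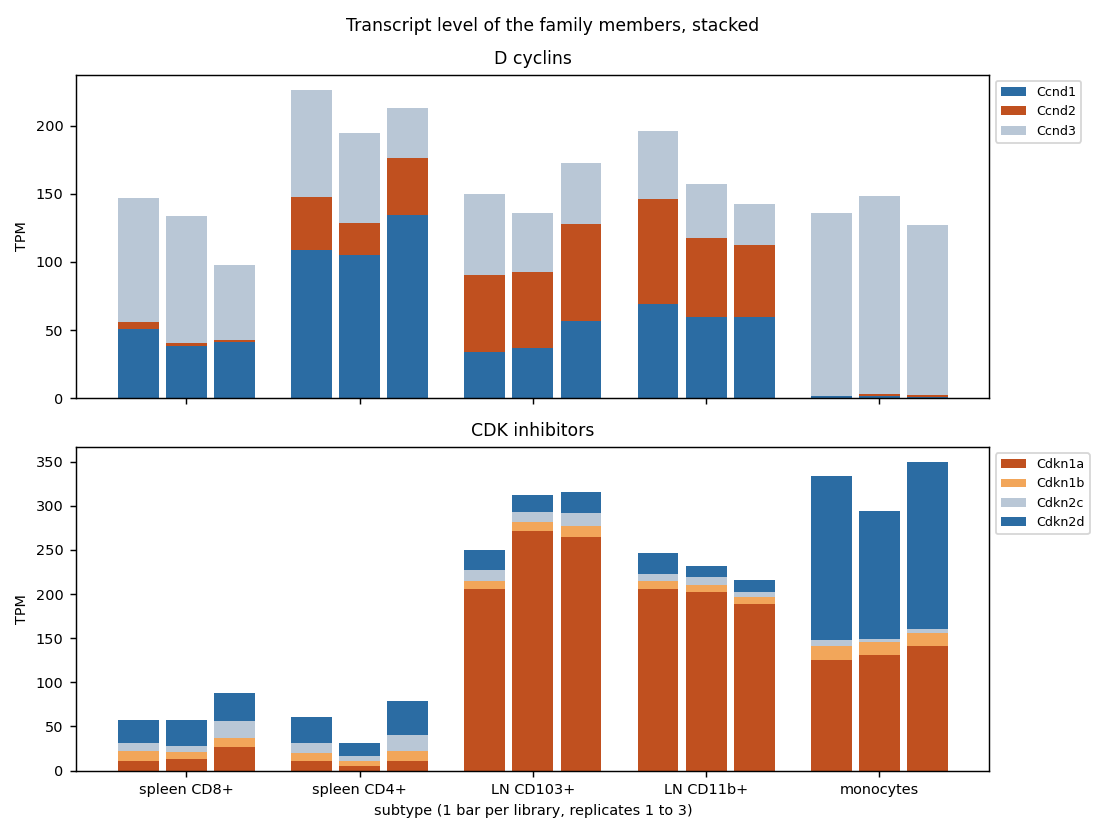
Stacked transcript levels in TPM (y axis) of the 3 D cyclins (top) and the 4 CDK inhibitors (bottom), with 1 bar per library and 3 libraries for each subtype. The inhibitor bars reach 216 to 316 TPM in LN DCs, mostly Cdkn1a, 294 to 349 TPM in monocytes, mostly Cdkn2d and Cdkn1a, and 87.9 TPM or less in splenic DCs.

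The summed level of the 4 inhibitors was 57.2 to 87.9 TPM in splenic CD8+ DCs, 30.7 to 78.9 TPM in splenic CD4+ DCs, 249 to 316 TPM in LN CD103+ DCs, 216 to 246 TPM in LN CD11b+ DCs and 294 to 349 TPM in monocytes. In LN DCs, Cdkn1a made up 82.7 to 87.4% of it. In splenic DCs, Cdkn1a made up 14.2 to 30.5% and Cdkn2d 36.4 to 50.9%. In monocytes the 2 genes shared the sum, with 37.3 to 44.4% from Cdkn1a and 49.3 to 55.7% from Cdkn2d. Set against the summed D and E cyclins, the inhibitor transcripts came to a ratio of 0.148 to 0.712 in splenic DCs, 1.19 to 2.17 in LN DCs and 1.92 to 2.65 in monocytes. Cdkn2b, at means of 137 and 72.4 CPM in LN CD103+ and CD11b+ DCs, is outside these sums, shares and ratios, which thus do not cover all inhibitors. These sums over chosen genes are descriptions, and transcript levels say nothing of how much of each protein was bound.

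Other genes of the pathway were read in the same LN to spleen comparison, where the median log2 fold change of all genes was 0.03, 26.5% of all genes were called higher and 23.4% lower. The counts of each list below are to be read beside these shares. Of 12 G1 kinases, their activators and genes for the breakdown of their partners, 2 rose and 6 fell (median -0.51). Cdk6, a partner of the D cyclins, rose by 1.12 ± 0.18 (adjusted p = 4.46e-05), and Fzr1, an activator of the ligase that keeps cells in G1, rose by 0.89 ± 0.14 (adjusted p = 3.81e-05). Cks1b and Skp2, which together mark p27 for breakdown, fell by 2.12 ± 0.24 and 1.68 ± 0.21 (adjusted p = 5.82e-07 and 1.58e-06). Of the 3 other CDK inhibitors, all were called higher in the mean of the lineages, 2 within DC1 (beside 23.8% of all genes) and 1 within DC2 (beside 19.3%). Cdkn2b (p15), an INK4 gene, went from means of 0.651 and 3.34 CPM in splenic CD8+ and CD4+ DCs to 137 and 72.4 CPM in LN CD103+ and CD11b+ DCs, a log2 fold change of 6.03 ± 0.38 (adjusted p = 9.91e-10). Cdkn2a went from 0.168 and 0.434 to 5.31 and 1.44 CPM (3.28 ± 0.56, adjusted p = 7.83e-05). Cdkn2b and Cdkn2a were at 0 CPM in all monocyte libraries.

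Of 17 pocket proteins, E2F factors and subunits of the DREAM repressor, 3 rose, beside 26.5% of all genes, and 9 fell, beside 23.4% (median -0.62). Rbl2, the pocket protein p130 of resting cells, rose by 0.78 ± 0.17 (adjusted p = 9.50e-04), although 10% of its exons overlap Aktip on the other strand, and E2f5, a repressor E2F, by 0.93 ± 0.26 (adjusted p = 0.00591). E2f8, an E2F family repressor made in S phase, fell by 2.62 ± 0.28 (adjusted p = 2.30e-07). E2f7, another such repressor, fell by 4.46 ± 0.57. Its means were 9.54 and 8.97 CPM in splenic CD8+ and CD4+ DCs and 0.233 and 0.731 CPM in LN CD103+ and CD11b+ DCs. E2f7 passed the filter on low counts through splenic DC libraries, so its test and its place in the count are no support for a fall. All 18 E2F target genes of S phase and mitosis fell (median -1.79), as they did within DC1 (median -2.05), within DC2 (median -1.63) and from splenic DCs to monocytes (median -3.26). Ccna2 (cyclin A), 14.6% of whose exons overlap Exosc9, went from 64.8 and 73.2 CPM in splenic CD8+ and CD4+ DCs to 7.30 and 8.24 CPM in LN CD103+ and CD11b+ DCs. Rrm2, a subunit of ribonucleotide reductase, went from 175.5 and 309 to 19.9 and 41.5 CPM. Between the splenic lineages 1 of the 18 was called, beside 27.4% of all genes, and 1 between the LN lineages, beside 12.9%.

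**Figure D4:**
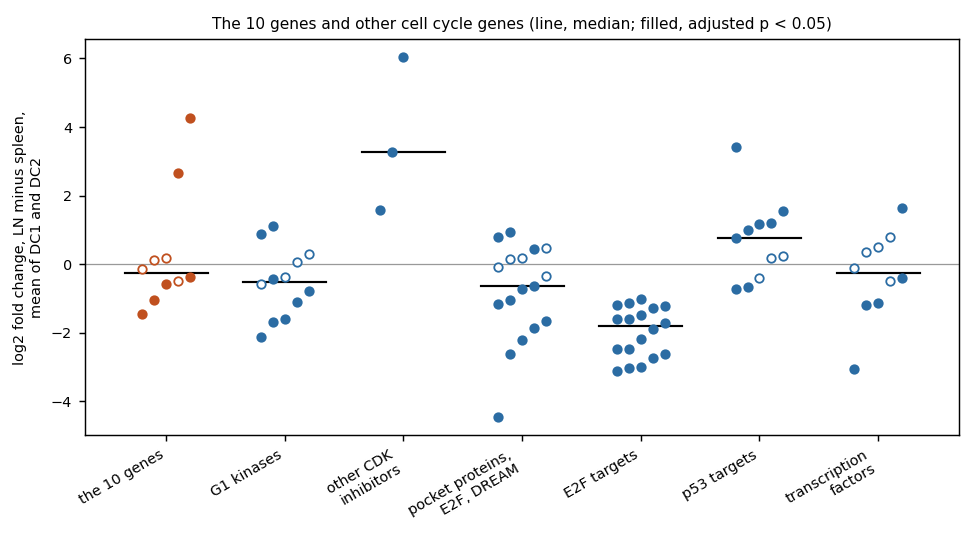
Log2 fold change from spleen to LN (y axis, mean of DC1 and DC2) of the 10 genes (orange) and of 6 lists of other cell cycle genes (blue), 1 point a gene, filled where the adjusted p was under 0.05, with the median as a line. The 18 E2F targets all lie below 0, with a median of -1.79. The other CDK inhibitors all lie above it, with a median of 3.28. That median is the value of Cdkn2a, which passed the filter on low counts only through LN libraries.

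Of 11 p53 target genes tested, which share a regulator with Cdkn1a, 6 rose, beside 26.5% of all genes, and 2 fell, beside 23.4% (median 0.76). Phlda3 and Bbc3 (Puma) rose by 3.42 ± 0.34 and 1.54 ± 0.30 (adjusted p = 9.34e-08 and 2.79e-04), and Btg2 and Aen fell by 0.73 ± 0.22 and 0.65 ± 0.20 (adjusted p = 0.0110 and 0.0113). Of 10 transcription factors and cofactors known to act on the 10 genes or on proliferation, 1 rose, beside 26.5% of all genes, and 4 fell, beside 23.4% (median -0.25). Btg1, a brake on proliferation, rose from 437.5 and 971 CPM to 2174.5 and 1901 CPM in the DC1 and DC2 subtypes. Mycl fell from 486 and 100 CPM to 29.6 and 24.2 CPM, and Trp53, which encodes p53 itself, fell from 240 and 316 CPM to 97.6 and 149.5 CPM in LN CD103+ and CD11b+ DCs (log2 fold changes of -3.04 ± 0.25 and -1.19 ± 0.16, adjusted p = 8.39e-09 and 3.48e-06).

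The genes with the most similar pattern were sought by Pearson's r of log2 CPM over the 15 libraries, among 8934 genes with a mean of at least 10 CPM. These coefficients are descriptions over libraries that fall into 5 groups. For Cdkn1a they were Glipr2 (r = 0.982) and Gyg (0.977), for Ccnd2 Rgs1 (0.974) and Gbp8 (0.969), for Ccnd1 Vcam1 (0.985) and Tubb5 (0.983), and for Ccnd3 Alg1 (0.943) and Slc25a45 (0.940). Among the E cyclins, Ccne1 was closest to Ncapd2 (0.950) and Cdca8 (0.935), and Ccne2 to Mycl (0.975) and Hells (0.973). Cdkn2d was closest to Naip6 and Arhgef1 (both 0.981), Rb1 to Casp1 (0.966) and Map2k1 (0.946), Cdkn1b to Coq9 (0.918) and Ap2a1 (0.889), and Cdkn2c to Haus5 (0.889) and Ilf2 (0.875). Gbp8 and Naip6 have close copies in the genome, and the reads counted for them are less certain. Within the 10 genes, the highest r was that of Ccne1 with Ccne2 (0.86) and the lowest that of Ccnd1 with Cdkn2d (-0.92).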

How the data were processed

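RNA of 15 sorted pools was made into poly-A libraries (SMARTer) and sequenced on Ion Torrent. For the count values, the authors mapped reads to mm10 with STAR 2.4.0j and counted them per Ensembl gene with featureCounts (Subread 1.5.2), unstranded and with a read overlapping several genes counted for each, summed over 2 sequencing runs for each monocyte library, and deposited them unnormalized. The TPM values were computed by the authors from these counts and exon lengths, and the deposited values were used for sums per length. Symbols came from GENCODE vM21 (37607 of 38924 genes, 96.6%), and motif searches used RefSeq promoter windows.

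From the counts, 1 edgeR 4.0.16 quasi-likelihood model (R 4.3.3, TMM, a mean for each of 5 subtypes) was fitted to 14456 genes with over 1 CPM in at least 3 libraries, and p-values were adjusted over all of them by Benjamini-Hochberg at 0.05. It was tested on simulated data for LN against splenic DCs alone. That simulation had independent libraries and far fewer changed genes than were called here, so it does not cover the other comparisons or shared deviations of replicates. Log2 CPM had a prior count of 2. Named genes were the 10 members, at most 2 genes in each direction per pathway list with the largest fold change, and the 2 most similar genes of each member. The genes, lists and tests were chosen with earlier results of these data known.

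Among DCs, libraries of the same replicate number deviated together in part. The r was 0.162 to 0.375 in the 3 pairs of splenic CD8+ and CD4+ DCs and 0.179 to 0.259 for the LN subtypes. It was 0.197 to 0.266 for DC2 of LN and spleen and 0.117 to 0.146 for LN CD103+ and splenic CD4+ DCs. These comparisons counted as paired. The r was 0.0374 to 0.0860 for DC1 of LN and spleen and 0.0163 to 0.182 for LN CD11b+ and splenic CD8+ DCs, which did not. Between monocytes and DCs it was -0.0353 to 0.0399, so a replicate block does not describe the monocytes. The main model held no pairing for any comparison. A paired fit, with a replicate block over all libraries, was an alternative. Between replicates, counts varied 4.96 to 50.7 times as much as sampling alone gives. Alternatives were RLE factors, DESeq2 1.42.0, no filter, filterByExpr, limma 3.58.1 with trend on log2(TPM + 1), only the subtypes compared, a replicate block, each library left out, and, chosen after seeing the data, reads of overlapping genes taken off.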

Additional observations from a re-analysis of the deposited data

Results flagged for a closer look

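For 2 of the 10 genes the effect of the organ differed between the lineages, by a test of the difference itself (edgeR's interaction term). For Ccnd2, the log2 fold change from spleen to LN in DC1 minus that in DC2 was 3.47 (SE 0.55, adjusted p = 3.72e-04). Its adjusted p was at most 0.00175 over the 23 alternatives. For Rb1 the difference was 1.46 (SE 0.29, adjusted p = 0.00259), with all 3 LN CD103+ libraries above all 3 splenic CD8+ libraries and all 3 LN CD11b+ libraries below all 3 splenic CD4+ libraries. Its adjusted p was at most 0.0110 over the alternatives. Groups of 3 libraries were too small for a search for single outlying libraries.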

How the results depend on the processing

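Over 23 alternatives, 15 of which left out 1 library each, no called value of the 10 genes changed its sign. The number of the 10 genes called between DC1 and DC2 in LN, 0, was 0 to 1 when libraries were left out. It was 1, Ccnd1, without LN CD103+ replicate 3, beside 1353 of 14320 genes. The counts of calls in the other comparisons stayed within 1.5 times. Over all genes, the calls between DC1 and DC2 in LN fell from 1872 to 1216 without LN CD103+ replicate 2. With the replicate block, of 70 values of a gene in a comparison 65 kept their side of the threshold and 5 passed it, which were Ccnd2 and Ccnd3 in DC2 between organs (0.92 and -0.53), Ccnd3 in DC1 (-0.58, adjusted p = 0.0234), Cdkn2d in the mean (-0.47) and Ccnd1 in the difference between lineages (0.89, adjusted p = 0.0406), and the blocked fit changed no other call. Between LN CD103+ and splenic CD4+ DCs, the block was chosen after seeing the data. There the blocked fit called 6 of the 10 genes, beside 7234 of 14456 genes. The fit without the block also called 6, beside 6798. Without a filter 3 of 70 values lost and 3 gained a call, and with DESeq2 0 lost and 3 gained one. Taking off the reads of overlapping genes assumes even coverage of their exons, and removed all reads of Ccnd1 in monocytes. Depth limits Ccne1, with 5 to 76 reads, and Ccnd2 in monocytes, with 1 to 34.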
